A study of Homo sapiens with 8 samples.

Results

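The subject is a stretch of the long arm of human chromosome 1, bands 1q41 to 1q42, profiled for open chromatin by FAIRE-seq in AIRE-Tet cells. Its members are the windows of the deposited hg19 table that start between 222000001 and 236000000 on chromosome 1, a length of 14 Mb. They number 5405 of 256141 windows, or 2.11%, and joining neighbours at most 100 bp apart gave 943 of 35741 merged regions. The stretch was picked because many of its windows had less signal after AIRE induction in these same libraries, so every value of that contrast below is a description and is not tested for the stretch.

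AIRE-Tet is a line of human embryonic kidney HEK293 cells with the Tet-On Advanced system, in which doxycycline switches on human AIRE. The 4 groups, each of 2 independent biological replicates, were DoxEtop (1.5 µM doxycycline, then 2 µM etoposide for 24 h after 24 h of induction), Dox (doxycycline alone), Etop (etoposide alone) and Control (untreated). All cells carry the inducible AIRE construct, and doxycycline in cells without it was not analysed here, so the drug and AIRE cannot be told apart. Total counts over windows were 4489871 to 5305079 in the 4 induced libraries and 4568818 to 8275911 in the other 4. Neighbouring windows of 150 bp start every 50 bp and share fragments. The totals therefore exceed the number of fragments behind them, and windows are not independent of each other.

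FAIRE-seq fixes cells with formaldehyde and sequences the DNA that phenol extraction leaves free of protein, which is poorly covered by nucleosomes, as at active promoters and enhancers. AIRE, the autoimmune regulator, is a chromatin-associated protein of the thymus that promotes expression of tissue-restricted genes and is known to work with topoisomerases and DNA break repair proteins. Etoposide traps topoisomerase II on cut DNA. Bands 1q41 and 1q42 are known to hold the gene of PARP1, an enzyme that responds to DNA breaks, and genes of WNT ligands and histones. Neither genes nor sequence of hg19 were at hand for these results, and no window is assigned to a gene and regions are given by position.

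The stretch held many regions for its length. Its 1 Mb segments held 9 to 181 regions with a median of 55.5, against 1 to 22 with a median of 8 in the 14 segments before it. The 14 segments after it held 0 to 61 with a median of 6, and all segments of the table that held a region had a median of 8. Elsewhere on chromosome 1, 17 of 192 segments with a region held at least 49, as did 10 of the 14 here, and the densest of them held 103. Of all 2304 segments with a region, 11 held more than 181, up to 466. The dense run began at 223000001, with 49 regions in that segment and 9 in the one before. The count was highest in the segment from 228000001 to 229000000, with 181 regions, and in the one from 226000001 to 227000000, with 135. The dense run went on past the end of the stretch, with 61 regions in the segment from 236000001 to 237000000 and 7 in the next. Densities are counts over all 8 libraries and were not tested; input libraries were not analysed here, so they are not set against the input.

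**Figure D1:**
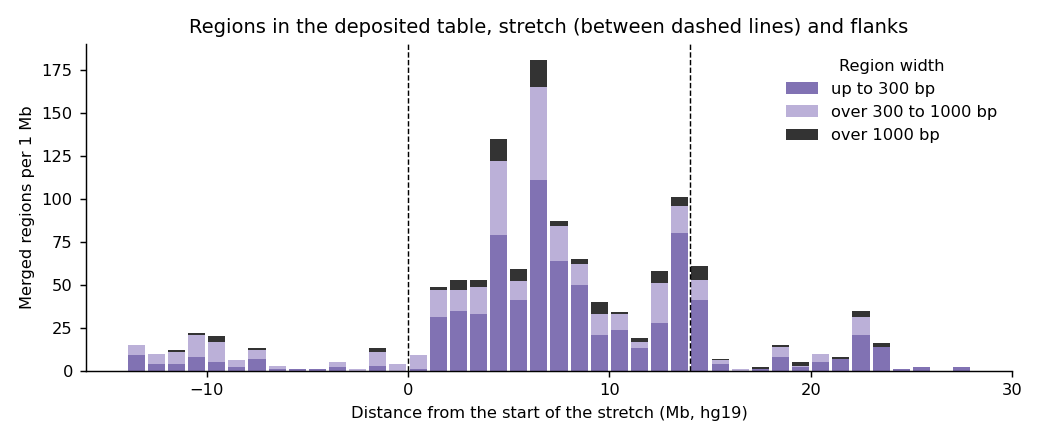
Merged regions per 1 Mb (vertical axis) against the distance in Mb from the start of the stretch (horizontal axis), with bars divided by region width. The stretch, between dashed lines, reaches 181 regions in 1 segment, while the 14 segments before it reach 22.

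Most of these regions were narrow. In the stretch 611 of 943 regions, or 64.8%, were at most 300 bp wide, against 42.5% of all regions and 65.5% in the 14 Mb after the stretch, and 76, or 8.06%, were over 1000 bp wide, against 8.64%. The median width was 250 bp in the stretch and 350 bp in the whole table, and the widest region had 3500 bp. The median gap between neighbouring regions was 3.65 kb, and the longest was 367 kb.

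With AIRE induction, 599 windows of the stretch were called lower and 65 higher by edgeR's quasi-likelihood test over the whole table (Benjamini-Hochberg adjusted p under 0.05, etoposide as second factor). That is 11.1% and 1.2% of its windows, beside 6.17% and 1.27% of all windows. The median log2 fold change was -1.50 over the windows called lower and 1.10 over those called higher. At 662 windows the 4 induced libraries all lay below the 4 others and at 246 all above, which is 12.2% and 4.55%, beside 7.49% and 4.98% of the table. Merged regions were called by Simes' p, adjusted over all regions, at under 0.05. Called regions with their window of smallest p lower numbered 187 of 943 (19.8%, beside 12.9% of all regions). Another 11 had it higher (1.17%, beside 1.42%). At least 1 window called lower was held by 216 of the 943 regions (22.9%, beside 16.1% of regions in the rest). The 10 regions with most lower windows held 86 of the 599. The number depends on the tool, as limma-voom called 30 windows lower and 8 higher, and loess offsets left 391 lower. How the windows were chosen is not given, but each held at least 111 counts in sum. The induced libraries hold 19999382 of the counts against 26766111 in the others. Assuming a choice by summed count, and with windows selected alike in both arms, 427 of 4092 were lower (10.4%, beside 5.42% in the rest).

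Within each etoposide state lower calls outnumbered higher ones. DoxEtop was lower than Etop at 269 windows and higher at 31, beside 2.43% and 0.45% of the table (4.98% and 0.574% in the stretch). Dox was lower than Control at 101 windows and higher at 1, beside 0.848% and 0.0156% of the table (1.87% and 0.0185% in the stretch). These comparisons share no library, and 58 windows, or 1.07%, were called lower in both, beside 0.476% in the rest of the table. Among the 269 found lower in DoxEtop vs Etop, 261 (97%) were on the negative side in Dox vs Control, beside 97.3% of such windows in the rest. These calls rest on few libraries: 5 of the first kind were made without DoxEtop replicate 1 and 46 without Etop replicate 1, and 0 of the second without Dox replicate 1, Dox replicate 2 or Control replicate 2. By limma-voom both counts were 0.

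The libraries did not contribute evenly. Levels are medians over windows of log2 CPM relative to the mean of all 8 libraries. CPM are counts scaled to each library's TMM-adjusted total, with a prior count of 2 in the logarithm. By this measure the stretch stood at -0.144 and -0.0703 in DoxEtop replicates 1 and 2 and at 0.00841 and 0.0241 in Dox. In libraries without induction it stood at 0.089 and 0.0718 in Etop and at 0.0582 and 0.221 in Control. DoxEtop replicate 1 was thus the lowest library and Control replicate 2 the highest, and the 2 arms did not overlap. The induced libraries averaged -0.0455 ± 0.0776 and the others 0.11 ± 0.0749 (SD, n = 4 each), and differed by -0.155. This difference was -0.04 with a higher count minimum, -0.0781 with windows selected alike in both arms and -0.329 with 1 window per region. Over the rest of the table the same medians were 0.0317 ± 0.0036 with induction and 0.0298 ± 0.0157 without it.

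DoxEtop replicate 1 was the lowest of the 8 libraries at 1216 windows of the stretch, and Control replicate 2 the highest at 1286. Lower windows numbered 327 without DoxEtop replicate 1 and 235 without Control replicate 2, and 739 without Control replicate 1. Control replicate 1 was the lowest of the 4 libraries without induction at 372 of the 599 lower windows. How often each library was lowest or highest was not counted in the rest of the table. With any 1 library left out, the share of windows called lower in the stretch stayed 1.70 to 1.97 times that in the rest of the table, against 1.83 times with all 8.

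Along the stretch the losses were uneven. The induced libraries had the lower mean in 12 of 14 segments, and in 7 of them all 4 induced libraries lay below all 4 others. Of segments with at least 100 windows, this was so in 7 of 13 here (53.8%), beside 72 of 663 in the rest of the table (10.9%). The largest difference, -0.411, was in the segment from 223000001 to 224000000, where the median was -0.175 ± 0.138 with induction and 0.236 ± 0.144 without it, and 55 of 255 windows were called lower and 0 higher. Next came the segment from 234000001 to 235000000, with -0.125 ± 0.14 with induction and 0.211 ± 0.21 without it and 95 of 393 windows called lower. These were the segments with the fourth and the second highest share of lower windows among 676 segments of the table with at least 100 windows, at 21.6% and 24.2% against a median of 5.34%.

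The segment with the most regions did not share the loss. From 228000001 to 229000000, the median was 0.041 ± 0.0654 with induction and 0.0272 ± 0.0486 without it (SD, n = 4 each), with 61 of 1141 windows called lower and 19 higher. The segment from 233000001 to 234000000 had 0.0331 ± 0.154 with induction and 0.0294 ± 0.0895 without it, and 4 of its 120 windows were called lower. In the dense segment from 226000001 to 227000000, 101 of 876 windows were lower and 12 higher. In all, 8 of the 13 segments of the stretch with at least 100 windows were among the 67 of the table with the highest share of lower windows. Just outside, the segment from 236000001 to 237000000 had 40 of 357 windows lower (11.2%) and a difference of -0.202 with all induced libraries below the others, and the one from 221000001 to 222000000 had 2 of 39.

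**Figure D2:**
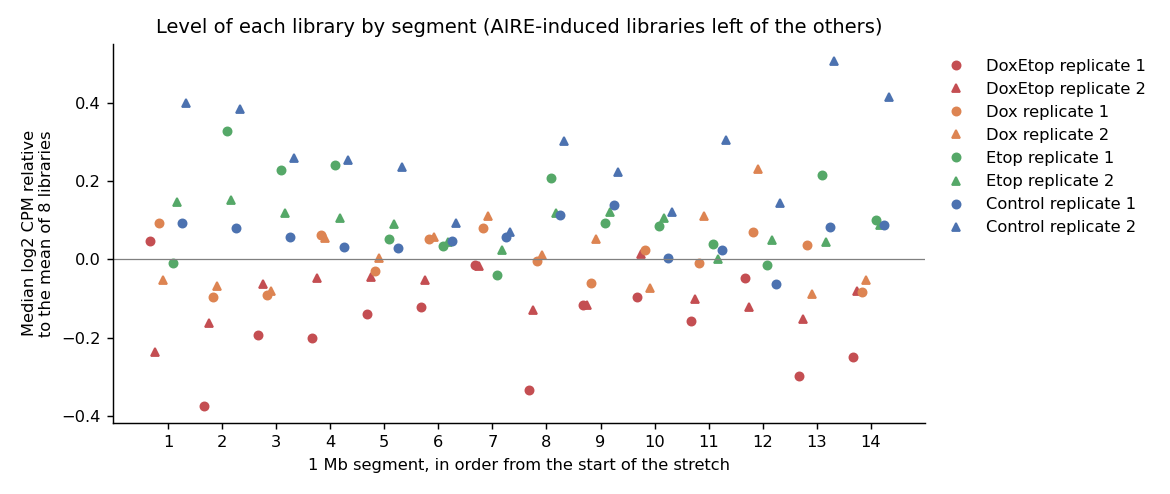
Median log2 CPM of each library relative to the mean of 8 libraries (vertical axis) in each 1 Mb segment (horizontal axis, in order), with AIRE-induced libraries left of the others. The arms part most in segment 2, at -0.175 against 0.236, and lie together in segment 7, at 0.041 against 0.0272.

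Lower windows were more frequent in narrow than in wide regions. Up to a width of 300 bp, 12.3% of windows in the stretch were called lower, against 9.84% in the rest of the table. Between 300 and 500 bp the shares were 17% in the stretch and 7.11% in the rest, and between 500 and 1000 bp they were 14% and 4.82%. Between 1000 and 2000 bp they came to 6.65% and 4.59%, and in still wider regions to 6.34% and 6.9%. For the narrowest class the median level was -0.171 ± 0.155 in induced libraries, against 0.252 ± 0.175 without induction (SD, n = 4 each). Between 1000 and 2000 bp the order was turned round, with 0.0852 ± 0.0327 with induction and -0.044 ± 0.0566 without it. The rest of the table had the same order in both classes. It had -0.0733 ± 0.0572 with induction and 0.154 ± 0.0805 without it up to 300 bp. Between 1000 and 2000 bp it had 0.0771 ± 0.0274 and -0.0201 ± 0.045.

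By mean level the stretch had the higher share in each of 4 classes, cut at the quartiles of the table. Among windows of 2.39 to 2.91 CPM, 10% were called lower in the stretch and 6.48% in the rest, and from there to 3.42 CPM 15.1% and 6.4%. Up to 4.38 CPM the shares were 13.6% in the stretch and 6.05% in the rest, and above it 7.3% and 5.33%. The median log2 fold change of the stretch was -0.36 between 2.91 and 3.42 CPM and 0.14 above 4.38 CPM. In the rest of the table these medians were 0.00346 and 0.104.

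Within wide regions, lower windows sat near the edges. Regions over 1000 bp were cut by distance from their centre into 3 parts, inner, middle and outer. Of 776 outer windows, 93 were called lower (12%), against 20 of 728 inner ones (2.75%). In the rest of the table these shares were 6.32% and 3.9%. Higher windows showed the opposite order, at 0.644% of outer and 2.75% of inner ones in the stretch, beside 0.837% and 2.53% in the rest. Outer windows also had less signal, at a median of 3.69 CPM against 4.69 CPM in inner ones, and the part of level in this order was not tested. Narrow regions of up to 500 bp called lower lay a median of 28.5 kb from the nearest region over 1000 bp, and those not called 28.8 kb.

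**Figure D3:**
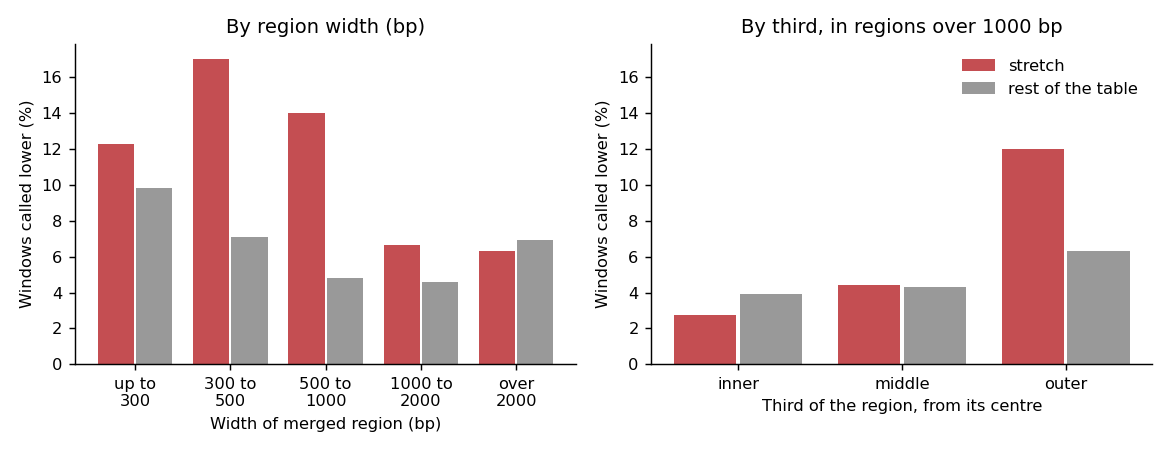
Share of windows called lower with AIRE induction (vertical axis, %) by width of the merged region (left) and by place from the centre outward in regions over 1000 bp (right), in the stretch and in the rest of the table. In the stretch the outer part of wide regions has 12% and the inner part 2.75%.

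The deepest losses were at windows nearly empty after induction, in regions of 150 to 1250 bp. By the naming rule, 12 regions with log2 fold changes of -4.79 to -3.18 are given, 8 of them at most 500 bp wide and 5 of them in the segment from 234000001 to 235000000. At their windows of smallest AIRE p each induced library had 0 to 14 counts and each other library 10 to 95. Control replicate 1 was the lowest library without induction at 11 of the 12, and Control replicate 2 was the highest of all at 10. The other 2 were highest in Etop replicate 1. RLE factors or column totals alone kept all 12 called. With windows selected alike in both arms, 7 of the 12 were kept as windows, and likewise 7 with the higher count minimum. All 7 stayed called, and the others fell outside both selections. Loess offsets, fitted per library against the mean log count of each window, left 1 of the 12 called and put 5 above 0. These 5 windows start at 226735551, 226251401, 229353701, 234611051 and 227918201. Every window held at least 111 counts in sum, so a very low mean log count means counts near 0 in some libraries. The offset at such windows is fitted on windows of that kind, so it cannot decide whether these losses hold. By limma-voom 0 of the 12 were called, with log2 fold changes of -4.94 to -3.22. DESeq2 called 11 of them.

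The region from 226735451 to 226735750 was the most depleted. Its window starting at 226735551 had, in counts, 0 and 5 in DoxEtop and 0 and 0 in Dox, against 64 and 22 in Etop and 13 and 92 in Control. In CPM this was 0.247 ± 0.495 with induction and 7.34 ± 5.31 without it (SD, n = 4 each). The log2 fold change was -4.79 (SE 0.616), and all 4 windows of the region were called lower. DoxEtop replicate 2 alone of the induced libraries had any reads.

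A region from 226251151 to 226251550 showed the same kind of loss near a gain. The window starting at 226251401 had, in counts, 0 and 4 in DoxEtop and 0 and 3 in Dox, against 68 and 23 in Etop and 10 and 27 in Control, a log2 fold change of -3.72 (SE 0.594). Etop replicate 1 was highest there. The region from 226249351 to 226250950, named among the gains, ends 200 bp before the region of this loss. Of its 30 windows 3 were called higher. At its last window, the nearest to the loss, the arms overlapped. Its window starting at 226250151 had 5.04 and 5.54 CPM in DoxEtop and 3.05 and 5.29 CPM in Dox, against 1.58 and 1.75 CPM in Etop and 2.05 and 1.65 CPM in Control, a log2 fold change of 1.40 (SE 0.382).

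At the region from 225964901 to 225966150 a strong peak stayed while its neighbour was lower with induction. The window starting at 225965351, the highest of the strongest region of its segment, had 16 and 15.8 CPM in DoxEtop and 19.5 and 16.5 CPM in Dox, against 19.2 and 13.2 CPM in Etop and 19 and 12.6 CPM in Control, a log2 fold change of 0.08 (SE 0.195). The arms overlapped there. At 500 bp further, the window starting at 225965851 had 0 and 2.77 CPM in DoxEtop and 0.953 and 0 CPM in Dox, against 13.6 and 5.48 CPM in Etop and 3.49 and 11.4 CPM in Control, a log2 fold change of -3.20 (SE 0.462). This second window is the one of the 12 that DESeq2 did not call. Control replicate 1 was the lowest library without induction there. At the last window of the region it had 0.361 CPM, against 0.593 CPM in DoxEtop replicate 2. A shorter region, from 225960051 to 225960350, ended 4550 bp before this one. At its window of smallest AIRE p it had 0.669 ± 0.641 CPM with induction and 7.83 ± 3.26 CPM without (SD, n = 4 each).

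The region from 234508751 to 234509600 also held a loss beside a window that kept its signal. Its window starting at 234509051 had, in counts, 0 and 4 in DoxEtop and 3 and 1 in Dox, against 48 and 19 in Etop and 25 and 50 in Control, a log2 fold change of -3.70 (SE 0.531). The window of this region with the highest level in induced libraries started 250 bp further, at 234509301. It had 8.25 ± 1.63 CPM with induction and 5.41 ± 1.58 CPM without it (SD, n = 4 each), and was not called. Picking it by its induced level favours the induced libraries. Of the 14 windows of this region 7 were called lower.

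The segment from 234000001 to 235000000 held 4 further losses of this kind. In the region from 234659351 to 234659700 the window of smallest AIRE p had 0.504 ± 0.272 CPM with induction and 6.51 ± 4.69 CPM without it, and all 5 windows were lower. In the region from 234610851 to 234611250 it had 0.399 ± 0.274 CPM with induction and 4.95 ± 2.16 CPM without it, again with all 5 windows lower. The region from 234859901 to 234860950 had 10 of 16 windows lower, and the region from 234462251 to 234462650 had 4 of 6. The remaining named losses were single short regions at 229353701 (log2 fold change -3.63) and 230446351 (-3.26) and a window in the region from 227917851 to 227918850 (-3.40).

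**Figure D4:**
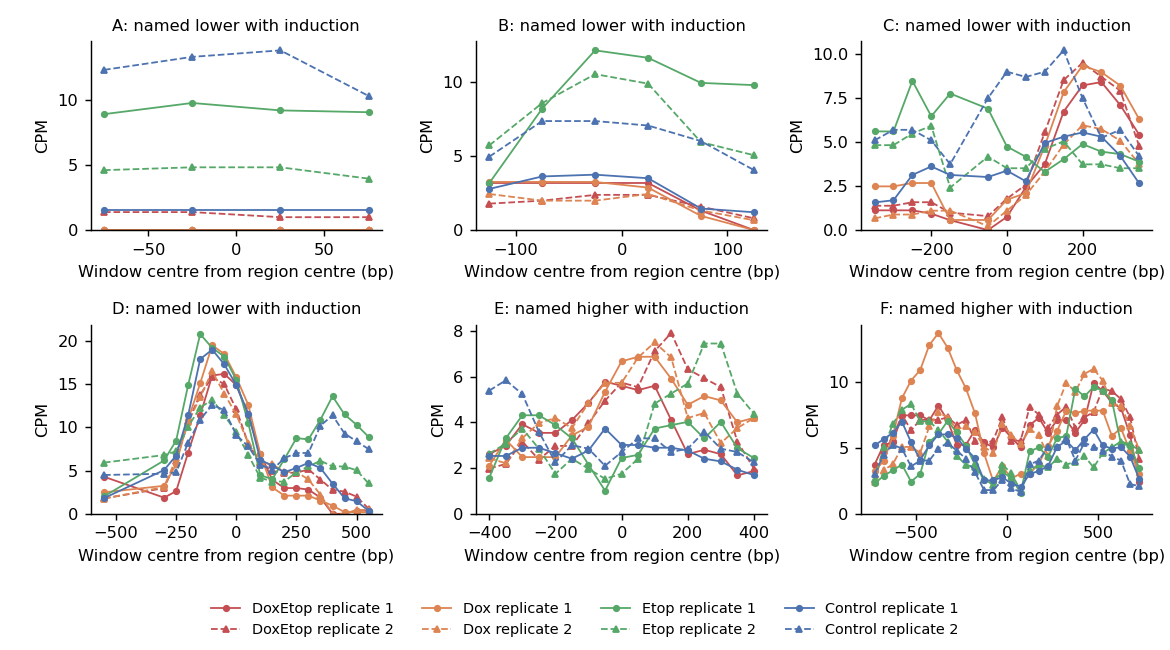
CPM (vertical axis) in successive windows against the distance in bp of the window from the centre of its region (horizontal axis), 1 line per library, for 4 regions named for losses (A to D) and 2 named for gains (E and F). Panel D, the region starting at 225964901, has a peak shared by all libraries. To its right is a second one, highest in Etop replicate 1 and Control replicate 2, where DoxEtop replicate 1 and Dox replicate 2 are at 0 CPM. Control replicate 1 is low there too, and falls to 0.361 CPM at the last window.

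Gains were smaller. The 6 named regions had log2 fold changes of 1.36 to 1.70, with counts of 15 to 31 per induced library and of 3 to 31 per library without induction, and 4 of them lay between 228000001 and 229000000, where 1.67% of windows were called higher, against 2.9% between 225000001 and 226000000. The window starting at 228338551 was the most even. It had 4.29 and 4.15 CPM in DoxEtop and 4.2 and 3.97 CPM in Dox, against 1.29 and 1.53 CPM in Etop and 1.08 and 1.2 CPM in Control, a log2 fold change of 1.70 (SE 0.407). The region that starts at 228334651, with 3600 bp between them, had 4.11 ± 1.22 CPM with induction and 1.59 ± 0.228 CPM without it (SD, n = 4 each).

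In the region from 228463001 to 228463950, 4 of 17 windows were called higher. At its window starting at 228463351 the level was 5.45 ± 0.391 CPM with induction and 2.09 ± 1.18 CPM without it, with Control replicate 1 the highest of the others at 3.73 CPM. The window starting at 228528401 had 4.02 ± 1.33 CPM with induction and 1.35 ± 0.92 CPM without it. Outside this segment, the window starting at 234350351 had 4.89 ± 0.435 CPM with induction and 1.89 ± 0.165 CPM without it (SD, n = 4 each). Of the 6 gains, 3 were no longer called without DoxEtop replicate 1, and likewise 3 without Dox replicate 2 and 3 without Control replicate 2. By limma-voom 0 of the 6 were called. With windows selected alike in both arms 3 of the 6 were kept, and 1 with the higher count minimum, and these stayed called.

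The strongest region of each segment was read at its highest window. These 14 regions, chosen by mean CPM over all libraries, had 7.58 to 16.5 CPM at their highest windows and log2 fold changes with induction of -0.69 to 0.74, above 0 in 8 of 14. At 1 of them the highest window was called. This was 230778101, in the region from 230777651 to 230778700, with 11.9 and 14.4 CPM in DoxEtop and 14.3 and 12.8 CPM in Dox, against 8.61 and 5.26 CPM in Etop and 11.2 and 6.59 CPM in Control. The induced libraries were all higher there. At least 1 window called lower was held by 7 of the 14 regions (50%), beside 22.9% of all regions of the stretch and 14.4% of the strongest regions of the segments elsewhere, and 1 held a window called higher. These shares are of unlike regions, since more windows give more chances of a call. The 14 held 6 to 35 windows each, while 226 of the 943 regions of the stretch were 150 bp wide. The strongest regions elsewhere were picked from fewer, at a median of 8 regions per segment of the table against 55.5 here.

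The stretch was not chosen by the etoposide contrast, and etoposide was tested. The choice did use these same libraries, so the etoposide values are not fully independent of it. No window of the stretch was called with etoposide by edgeR (0 of 256141 in the table, 0%), nor in Etop vs Control, DoxEtop vs Dox or the interaction of both treatments. At an unadjusted p under 0.05, 276 windows were lower and 125 higher with etoposide (edgeR), or 5.11% and 2.31%, beside 2.79% and 3.04% of the table. The 4 etoposide libraries all lay below the 4 others at 111 windows and above them at 40, or 2.05% and 0.74%, beside 1.29% and 1.3%. For the other comparisons the unadjusted counts (edgeR) were 332 in Etop vs Control (6.14%, beside 5.57%), 308 in DoxEtop vs Dox (5.7%, beside 4.26%) and 245 for the interaction (4.53%, beside 4.14%). DESeq2 called 1 window of the stretch with etoposide, of 3 in the table, and 0 in these other comparisons. By limma-voom 0 were called in each, with 8 in the table for DoxEtop vs Dox.

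The window that DESeq2 called was the one with the smallest etoposide p. In the region from 235026751 to 235026950, the window starting at 235026751 had, in counts, 4 and 1 in DoxEtop and 6 and 6 in Etop, against 27 and 17 in Dox and 36 and 31 in Control. The etoposide libraries were all lower, at 0.78 ± 0.459 CPM against 4.47 ± 0.586 CPM in the libraries without etoposide (SD, n = 4 each). The log2 fold change was -2.51 (SE 0.457), with an adjusted p of 0.198 by edgeR and 0.0367 by DESeq2. Over the other edgeR and limma-voom alternatives, leaving out libraries included, the adjusted p was 0.0262 without Etop replicate 1 and 0.0511 to 0.958 otherwise.

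At a window in the other direction, 228290651 in the region from 228289351 to 228291600, the level was 7.04 ± 1.56 CPM with etoposide and 3.34 ± 1.02 CPM without (SD, n = 4 each). Its log2 fold change was 1.10 (SE 0.29), edgeR gave an adjusted p of 0.639, and all 4 etoposide libraries were higher. For the interaction, the window starting at 230560951 had the smallest p. It had 0.933 and 1.19 CPM in DoxEtop and 6.46 and 4.82 CPM in Etop, against 4 and 3.97 CPM in Dox and 2.65 and 2.55 CPM in Control. The edgeR adjusted p was 1.

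Taken over all its windows, the stretch had a median of -0.0134 ± 0.113 with etoposide and 0.0778 ± 0.0974 without (SD, n = 4 each). The difference was -0.0912 (exact permutation test over 70 assignments, two-sided, p = 0.286). The assignments exchange libraries across AIRE states, so their spread holds the AIRE difference too. Without DoxEtop replicate 1, the lowest library, the difference was -0.0441. Without Control replicate 2, the highest, it was -0.0428. Within induced cells both DoxEtop medians, -0.144 and -0.0703, lay below both Dox medians, 0.00841 and 0.0241, while those of Etop, 0.089 and 0.0718, and Control, 0.0582 and 0.221, overlapped. Set against the rest of the table in all 8 libraries, the difference with etoposide was -0.0909 (exact permutation test, two-sided, p = 0.314). The median log2 fold change with etoposide was -0.08 in the stretch, below 0 at 58.1% of windows; it was -0.09 over the 14 Mb before it and -0.07 over the 14 Mb after it, below 0 at 59.5% and 58.7%. Etoposide libraries had the lower mean in 13 of 14 segments, with differences of -0.182 to 0.00856. Without DoxEtop replicate 1 this held in 10 segments, and without Control replicate 2 in 11. In 2 segments, from 227000001 to 228000000 and from 228000001 to 229000000, the 4 etoposide libraries all lay below the 4 others.

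Those 2 segments reached the smallest p the design allows (exact permutation test, two-sided, p = 0.0286), with an adjusted p of 0.2 over the 14 segments. In the second of them the median was -0.0114 ± 0.026 with etoposide and 0.0796 ± 0.0238 without (SD, n = 4 each). Both DoxEtop libraries lay below both Dox libraries in 10 of 14 segments. Among the 14 strongest regions, 12 had an etoposide log2 fold change below 0, from -0.64 to 0.18 over all 14, with edgeR adjusted p of 0.72 to 0.988. These etoposide counts over segments and strongest regions were not made for the rest of the table. They are not shown to be particular to the stretch.

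**Figure D5:**
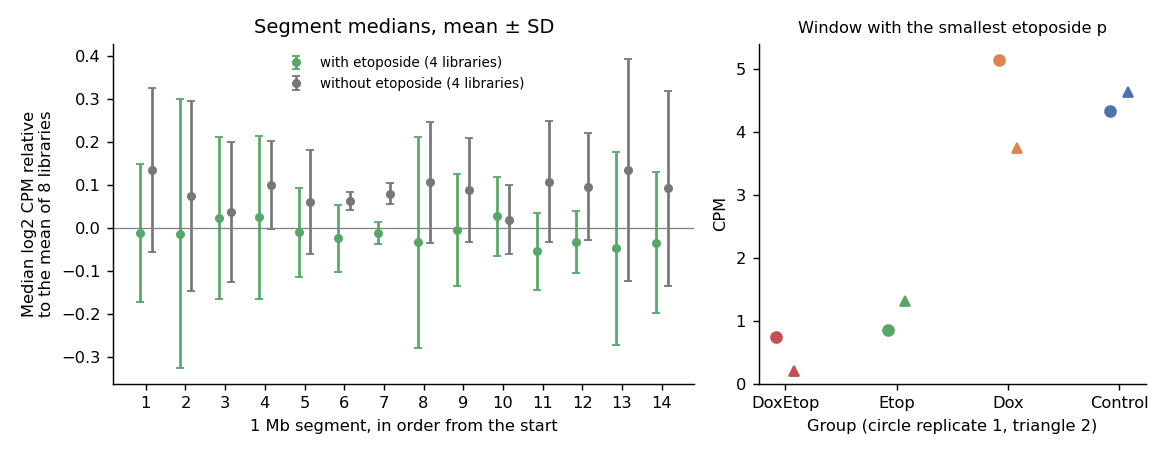
Left, segment medians of log2 CPM relative to the mean of 8 libraries (vertical axis) by segment, as mean and SD of 4 libraries with and 4 without etoposide. Right, CPM of each library at the window starting at 235026751, where all 4 etoposide libraries are below the other 4.

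The regions next to the ends of the stretch were as follows. The first region inside, from 222638601 to 222639150, had 4.77 ± 1.01 CPM with induction and 4.81 ± 1.33 CPM without it, and the last region outside before it, from 221915951 to 221916900, had 4.2 ± 1.21 and 3.14 ± 0.612 CPM in the same order (SD, n = 4 each). The last region inside, from 235990401 to 235990550, had 2.3 ± 1.28 CPM with induction and 2.89 ± 1.38 CPM without it. The first one after the end, from 236029451 to 236030600, had 6.53 ± 1.38 CPM with induction and 5.22 ± 0.803 CPM without it. None of these 4 regions held a window called lower.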

How the data were processed

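The deposited table holds raw counts made by the authors, per 150 bp window and library, on hg19. Trim Galore, Bowtie2 and Bowtie stand without versions in the submitters' processing notes; the rules for choosing windows, assigning fragments and using input are not given in the sources used. Every window held at least 111 counts over the 8 libraries, so a window low in all libraries is not in the table. All windows were fitted with edgeR 4.0.16 (R 4.3.3) by quasi-likelihood F tests after TMM scaling on column totals. An additive model (5 residual degrees of freedom) gave the AIRE and etoposide effects and a model of group means (4 residual degrees of freedom) the other contrasts; Benjamini-Hochberg adjustment ran over 256141 windows. filterByExpr removed 0 windows. The common biological coefficient of variation was 26.4%. Regions were tested by Simes' p. Per-library medians were compared by exact permutation (scipy 1.17.1). The labels call the replicates independent biological ones.

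The named regions follow a fixed rule: the 12 with the lowest and 6 with the highest AIRE log2 fold change among those called at their window of smallest p with arms that do not overlap, the strongest region per segment, and the 3 windows of smallest p for etoposide and for the interaction. The members, the rule and the tests were chosen with earlier results of these data known. Classes by width, level and place in a region, the density counts and the window of highest induced level per region were chosen after seeing the data. Alternatives were RLE or no scaling factors, a higher count minimum, selection alike in both arms, DESeq2 1.42.0, limma-voom (limma 3.58.1), the replicate number as a block, leaving out each library, and loess offsets, added after seeing the data.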

Additional observations from a re-analysis of the deposited data

Results flagged for a closer look

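In 6 of 106 sets of 4 libraries examined (each AIRE arm, for the medians and named windows), 1 library stood far from the other 3. The cut-off is meant to flag about 1 in 20 independent sets. These sets share libraries and windows, so the number cannot be set against chance. DoxEtop replicate 1 was low among the induced libraries in the segment from 235000001 to 236000000, at -0.248 against -0.0827 to -0.0527. Control replicate 2 was high among the libraries without induction in the segment from 235000001 to 236000000, with a median of 0.414 against 0.0869 to 0.101 in the other 3, and in the segment from 232000001 to 233000000, with 0.305 against at most 0.0386. At the window starting at 226735551, DoxEtop replicate 2 had 0.989 CPM and the other induced libraries 0. At the overlapping windows starting at 229053201 and 229053251, Dox replicate 1 had 5.91 and 5.72 CPM, against 0.882 to 1.12 and 1.1 to 1.58 CPM in the other induced libraries.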

How the results depend on the processing

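The share of windows called lower with AIRE induction stayed above that in the rest of the table under every alternative, at 1.69 to 2.34 times. The counts moved more. Lower windows numbered 329 with a higher count minimum, 30 with limma-voom, 391 with loess offsets and 235 to 739 with 1 library left out; higher windows were 8 with limma-voom and 14 to 95 with 1 library left out. For Dox vs Control, lower windows were 9 with DESeq2, 0 with limma-voom, 26 with loess offsets and 0 to 180 with 1 library left out, with 0 each without Control replicate 2, Dox replicate 1 or Dox replicate 2. For DoxEtop vs Etop they were 164 with the higher minimum, 77 with DESeq2, 0 with limma-voom, 133 with loess offsets and 5 to 348 with 1 library left out, the 5 without DoxEtop replicate 1, with 46 without Etop replicate 1 and 151 without DoxEtop replicate 2. Leaving out a library also removes replication. Etoposide calls were 1 with DESeq2 and 0 to 1 with 1 library left out; Etop vs Control calls were 0 to 3. The median difference with AIRE induction was -0.04 with the higher minimum, -0.0781 with windows selected alike in both arms and -0.329 with 1 window per region. Loess offsets turned 5 of the 12 deepest losses to values above 0, none of them called: 0.182 at 226735551, 0.996 at 226251401, 0.390 at 229353701, 0.007 at 234611051 and 0.089 at 227918201, and 1 of the 12 stayed called; limma-voom called 0 of the 12, DESeq2 11, all but 225965851, and leaving out any 1 library kept all 12. The cause was not tested. The loess offset at windows nearly empty in some libraries is fitted on windows of that kind, so that setting cannot decide about these losses. Of the 12, 7 were kept with the higher minimum and 7 with windows selected alike in both arms, and all 7 stayed called. Replicate numbers are not said to pair the libraries, and correlations of replicate differences between groups were -0.0732 to 0.12. With a replicate block, 571 windows were lower and 62 higher with AIRE induction, 73 were lower in Dox vs Control and 244 in DoxEtop vs Etop, and etoposide and the interaction had 0 calls.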
